A study of Mus musculus with 16 samples.

Results

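The 39 genes described here encode the enzymes and assembly factors that copy DNA and make its building blocks. They were taken by symbol from a table of raw counts of 25054 genes in 16 mouse osteosarcomas, and all 39 passed the filter on low counts, as did 15413 genes in all. Sorted by role, 11 of them license origins (*Orc1*, *Orc2*, *Orc6*, *Cdc6*, *Cdt1*, *Mcm2*, *Mcm3*, *Mcm4*, *Mcm5*, *Mcm6* and *Mcm7*) and 6 activate the helicase (*Mcm10*, *Cdc45*, *Gins1*, *Gins2*, *Gins3* and *Gins4*). Another 6 form the sliding clamp and its loader (*Pcna*, *Rfc1*, *Rfc2*, *Rfc3*, *Rfc4* and *Rfc5*), and 10 are polymerases, primase and fork factors (*Pola1*, *Pola2*, *Prim1*, *Prim2*, *Pole*, *Pole2*, *Pold1*, *Fen1*, *Rpa1* and *Rpa2*). The last 6 are 4 enzymes of nucleotide synthesis (*Rrm1*, *Rrm2*, *Tyms* and *Tk1*) and 2 subunits of a chromatin assembly factor (*Chaf1a* and *Chaf1b*).

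All mice carried OsxCreERT2+/-, a tamoxifen-inducible Cre driven in cells that express *Osterix*, together with the floxed alleles p53fl/fl and Rb1fl/fl. Tamoxifen was given at 1 month of age at 400 ug per g, and the mice were over 6 months old, of both sexes, with no sex given per tumor. By their genotype labels 8 tumors, called KO here, also carried Arid1afl/fl and came from 8 mice (Massa, Medusa, Montana, Ohio, Prince, Grilka, Zelda and Oregon) with no body site in the labels. The other 8, called WT, carried no floxed *Arid1a* and came from 4 mice by their codes: N42 (R pelvis, R femur, L limb and L shoulder), N43 (spine and pelvis), N215 (R hind limb) and N25 (lung). *Arid1a* itself lay between 107 and 270 counts scaled to a library size of 1e+06 (CPM) in KO (median 179) and between 125 and 236 in WT (median 166), with a fitted log2 fold change of 0.16 (standard error, SE, 0.22, edgeR adjusted p = 0.715). The counts cover the whole gene, so reads from the floxed exons could not be told from the others, and the genotype label was not checked by this value. Between 1109487 and 15059640 counts fell on genes in a KO tumor and between 7806160 and 16962329 in a WT tumor. The labels name neither batches nor dates, so values within a batch could not be computed.

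DNA replication starts where the origin recognition complex, *Cdc6* and *Cdt1* load the *Mcm2* to *Mcm7* helicase onto DNA before S phase. *Cdc45* and the GINS complex then switch this helicase on, polymerase alpha with primase lays down primers, and polymerases delta and epsilon extend them with the clamp *Pcna* that the Rfc complex loads. Ribonucleotide reductase, thymidylate synthase and thymidine kinase supply the deoxynucleotides, and the Chaf1 subunits place histones on the new strands. The genes of this machinery are classic targets of the E2F transcription factors, which the Rb1 protein holds back in resting cells, and their RNA is most abundant in cycling cells.

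The promoters of 32 of the 39 genes were found in RefSeq (GRCm38.p6), each from 250 bases before to 50 bases after the start. An E2F site, searched as TTTCCCGC, TTTGGCGC, TTTCGCGC or TTTGCCGC on both strands, was present in 12 of the 32 (37.5%) and in 704 of all 27025 genes with a promoter (2.605%). The 12 were *Orc1*, *Cdc6*, *Cdt1*, *Mcm3*, *Mcm5*, *Mcm6*, *Mcm7*, *Gins3*, *Rfc3*, *Pola1*, *Pole2* and *Pold1*. A CCAAT box (CCAAT, both strands) was present in 21 of the 32 (65.6%) against 41.1% of all, and a GC box (GGGCGG, both strands) in 23 (71.9%) against 38.2%. The promoters of *Rfc2*, *Prim2*, *Mcm4*, *Gins2*, *Gins1*, *Pole* and *Gins4* were not analysed here. The 170 bases before the start are given for 5 genes, chosen after their values were seen: *Mcm5*, *Mcm6* and *Pola1*, which hold matches, *Chaf1b*, whose levels lay as far apart between KO tumors as those of *Mcm5*, and *Rpa1*, whose levels lay close together. Capitals mark E2F matches, except a match that overlaps one already marked, and a match describes letters, not a bound site.
*Mcm5* (chr8:75109339-75109508, plus strand): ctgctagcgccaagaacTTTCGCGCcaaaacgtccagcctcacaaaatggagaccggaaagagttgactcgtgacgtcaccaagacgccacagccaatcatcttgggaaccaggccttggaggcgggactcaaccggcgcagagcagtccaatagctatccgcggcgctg
*Mcm6* (chr1:128359706-128359875, minus strand): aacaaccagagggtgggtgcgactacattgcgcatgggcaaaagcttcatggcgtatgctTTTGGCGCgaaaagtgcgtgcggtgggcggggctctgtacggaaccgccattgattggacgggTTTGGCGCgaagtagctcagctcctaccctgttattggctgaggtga
*Pola1* (chrX:93632156-93632325, minus strand): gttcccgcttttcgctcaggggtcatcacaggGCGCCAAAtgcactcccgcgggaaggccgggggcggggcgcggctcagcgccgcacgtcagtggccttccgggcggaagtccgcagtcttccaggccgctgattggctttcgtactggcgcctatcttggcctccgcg
*Chaf1b* (chr16:93883731-93883900, plus strand): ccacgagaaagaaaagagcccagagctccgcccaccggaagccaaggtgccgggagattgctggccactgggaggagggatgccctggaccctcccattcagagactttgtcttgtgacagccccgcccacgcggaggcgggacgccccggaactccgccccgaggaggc
*Rpa1* (chr11:75348384-75348553, minus strand): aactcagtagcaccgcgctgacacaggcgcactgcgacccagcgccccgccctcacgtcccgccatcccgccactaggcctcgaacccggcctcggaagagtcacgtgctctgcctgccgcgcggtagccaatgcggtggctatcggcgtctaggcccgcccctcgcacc
The marked match in the *Mcm5* promoter began 153 bases before the start and that of *Pola1* 138 bases before it. *Mcm6* held 2 marked matches, 110 and 47 bases before the start. In *Mcm5*, and in *Mcm6* at 110 bases, the last capitals also begin an overlapping match on the other strand (GCGCcaaa and GCGCgaaa). These overlapping matches were not marked. None of these letters lay in the windows shown for *Chaf1b* and *Rpa1*. The SD of log2 CPM between KO tumors ran from 1.21 (*Mcm7*) to 2.86 (*Mcm5*) in the 12 genes with a match (median 1.76) and from 0.58 (*Rpa1*) to 2.95 (*Chaf1b*) in the 20 without one (median 1.40), so the ranges overlapped, and this difference was not tested.

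The KO tumors lay far apart in these genes, and the WT tumors lay between them. For each tumor the log2 CPM of each gene was set against its mean over the 16 tumors, and the median over the 39 genes was taken. This median was −1.46 in Massa, −1.28 in Oregon, −1.26 in Montana and −0.92 in Prince. It was 0.58 in Grilka, 1.10 in Zelda, 1.42 in Medusa and 1.49 in Ohio. Of the WT tumors, 6 lay in the gap between Prince and Grilka, from −0.46 (N25 lung) to 0.37 (N42 R pelvis), and N42 L limb at 0.69 and N215 R hind limb at 1.08 lay between Grilka and Zelda. Over all genes tested, the same median lay between −0.47 and 0.11 in the 16 tumors. The summed CPM of the 39 genes ran from 364 to 1922 in KO (median 842, n = 8) and from 524 to 1697 in WT (median 815, n = 8). Among the 16 tumors, Ohio was in the highest 4 for 35 of the 39 genes, N215 R hind limb for 32, Medusa for 29 and Zelda for 25. Montana and Prince were each in the lowest 4 for 30 genes, and Massa and Oregon each for 27.

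**Figure D1:**
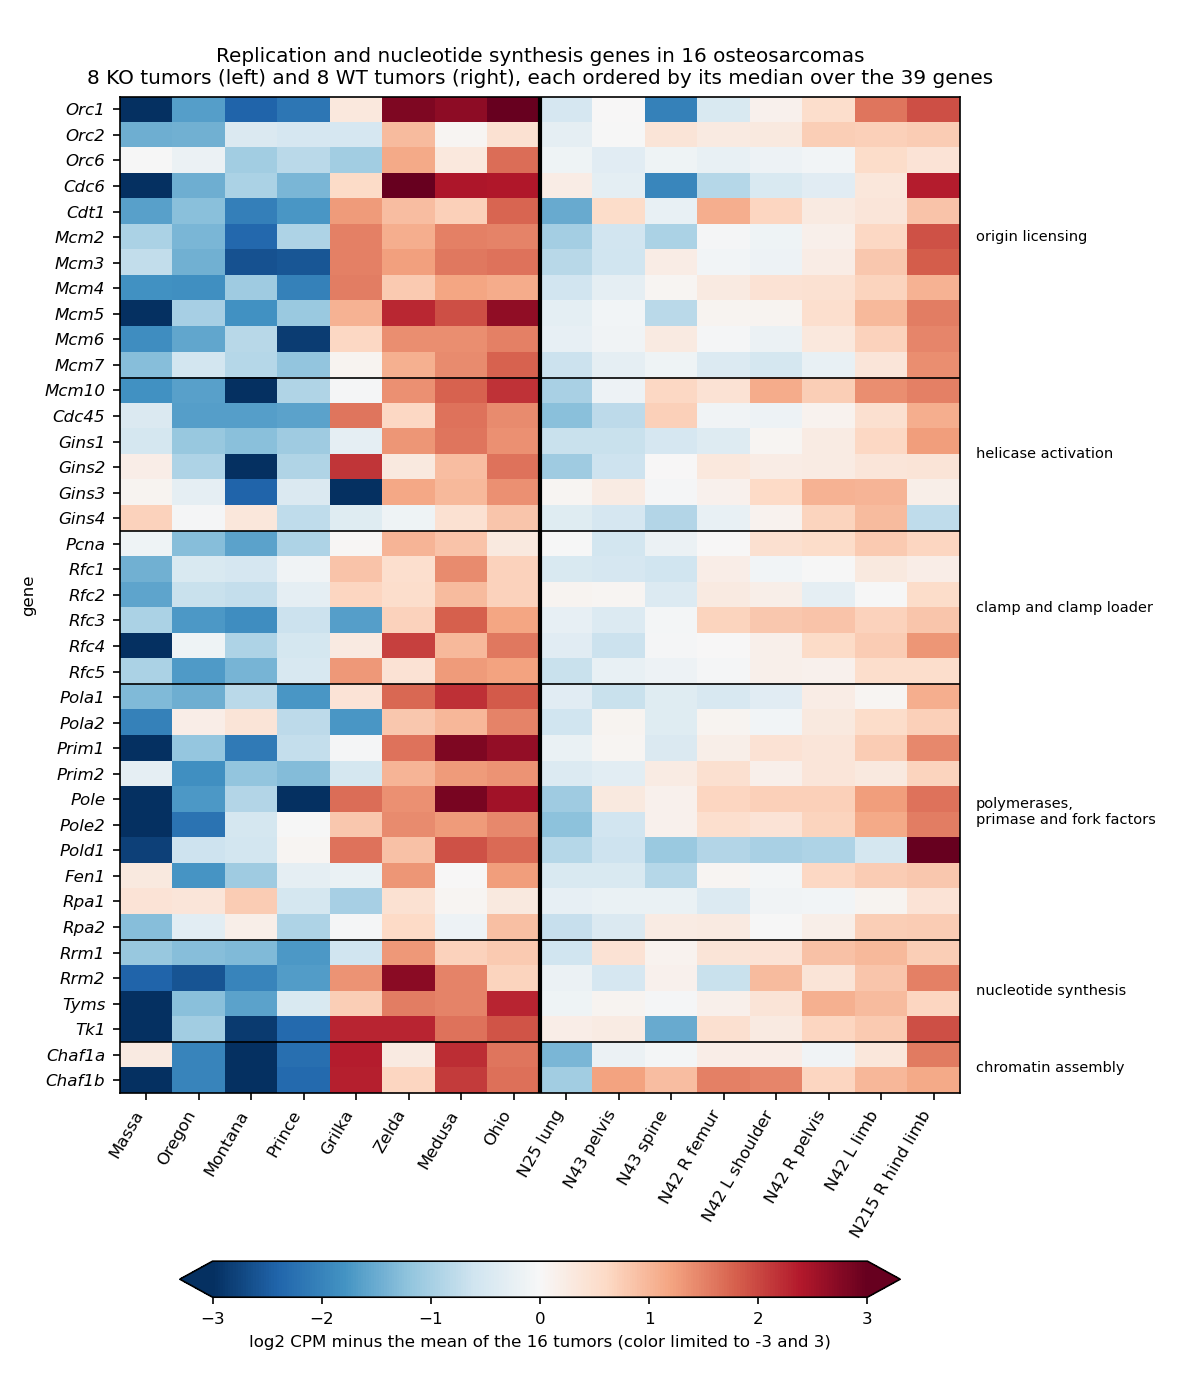
Log2 CPM of the 39 genes (rows, by role) in each tumor (columns), as the difference from the mean of the 16 tumors; red is higher and blue lower, and KO tumors stand left of the black line. Massa, Oregon, Montana and Prince are blue in most rows and Grilka, Zelda, Medusa and Ohio red in most, while the WT columns are paler.

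Set against the range of the 8 WT tumors, the same KO tumors fell outside it on opposite sides. In Ohio 28 of the 39 genes were above the highest WT tumor, where 20.3% of all genes tested were, and none was below the lowest, where 19.1% were. Medusa had 22 genes above (21.4% of all genes) and none below (24.7%). Zelda had 20 above (18.3%) and none below (18.1%). Grilka had 11 above (19.5%) and 7 below (38.5%).

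The other 4 KO tumors lay on the low side. Montana had 30 of the 39 genes below the lowest WT tumor (28.3% of all genes) and 1, *Rpa1*, above the highest (23.7%). Prince had 27 below (25.8%) and none above (26.5%). Oregon had 25 below (29.7%) and none above (3851 of the 15413 genes). Massa had 26 below (46.1%) and none above (18.5%). The counts behind the Massa and Grilka values were small. In Massa, 10 genes were at 0 counts (*Orc1*, *Cdc6*, *Mcm5*, *Rfc4*, *Prim1*, *Pole*, *Pole2*, *Tyms*, *Tk1* and *Chaf1b*) and 23 had 3 counts or fewer, with 3 counts standing for 6.69 CPM there, 4.03 CPM in Grilka and between 0.146 and 0.340 CPM in WT. Of the 26 genes of Massa below the WT range, 15 had a lowest WT level above those 3 counts, and a difference in the other 11 was not detectable at this depth. In the remaining KO tumors, Montana had 6 genes with 3 counts or fewer, Grilka 5, Oregon 3 and the other 4 none. These floors cover counting error only.

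Markers of other tissues moved with the low values. The skeletal muscle list (12 of 12 markers in the table) summed to 80360 CPM in Montana and 138400 CPM in Oregon and to between 13.8 and 8047 CPM in WT. The other 6 KO tumors held between 3.19 and 228 CPM of it, and 10 of the 12 muscle markers were at 0 in Massa. The salivary gland list (10 of 11 in the table) summed to 112400 CPM in Prince, to between 13.9 and 486 CPM in the other KO tumors and to between 9.55 and 112 CPM in WT. The lung list (10 of 10) summed to 12990 CPM in Massa and 27080 CPM in the N25 lung tumor, against between 4.20 and 43.7 CPM in the other KO tumors and between 14.7 and 80.0 CPM in the other WT tumors. In Montana and Oregon 7 of the 10 lung markers were at 0, the surfactant genes *Sftpa1*, *Sftpb*, *Sftpc* and *Sftpd* among them.

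The osteoblast list (12 of 12), a check of the labeled tissue, summed to between 718 and 3011 CPM in Prince, Montana, Oregon and Massa and to between 11850 and 61030 CPM in Zelda, Ohio, Medusa and Grilka. In WT it lay between 2914 CPM (N25 lung) and 84240 CPM (N42 L shoulder). Of its defining genes, *Sp7*, *Bglap* and *Bglap2* were at 0 in Massa, *Dmp1* in Prince, and *Bglap* and *Bglap2* in N215 R hind limb, which had the highest level of the 39 genes among the WT tumors. Zelda had the highest sums of the erythroid list (2814 CPM against between 49.1 and 567 in the other tumors) and of the lymphoid (1394 CPM against between 13.5 and 305), neutrophil and marrow (479 CPM against between 1.72 and 243) and liver lists (1495 CPM against between 0.795 and 59.7). The erythroid list has 12 of 12 markers in the table, the lymphoid list 9 of 11, the neutrophil and marrow list 10 of 10 and the liver list 10 of 10, and none of them was at 0 in Zelda. The macrophage list (10 of 10) summed to between 324 and 2041 CPM in KO and between 666 and 2685 CPM in WT, and 9 of its genes were lower in KO by the edgeR test (2.15% of all genes were called lower). None of the 10 passed the threshold with counts summed per mouse or in limma-voom with a random effect for the mouse. These fits called hardly any gene (0.0625% and 0.110% of all genes). All 10 were below 0 in both. At an unadjusted p under 0.05 there were 9 with counts summed per mouse (1262 of 16007 genes in either direction) and 8 in limma-voom (1371 of 15413). The part of these markers in the values of the replication genes was not tested. In bulk RNA, fewer cells that replicate and less of this RNA per cell cannot be told apart.

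**Figure D2:**
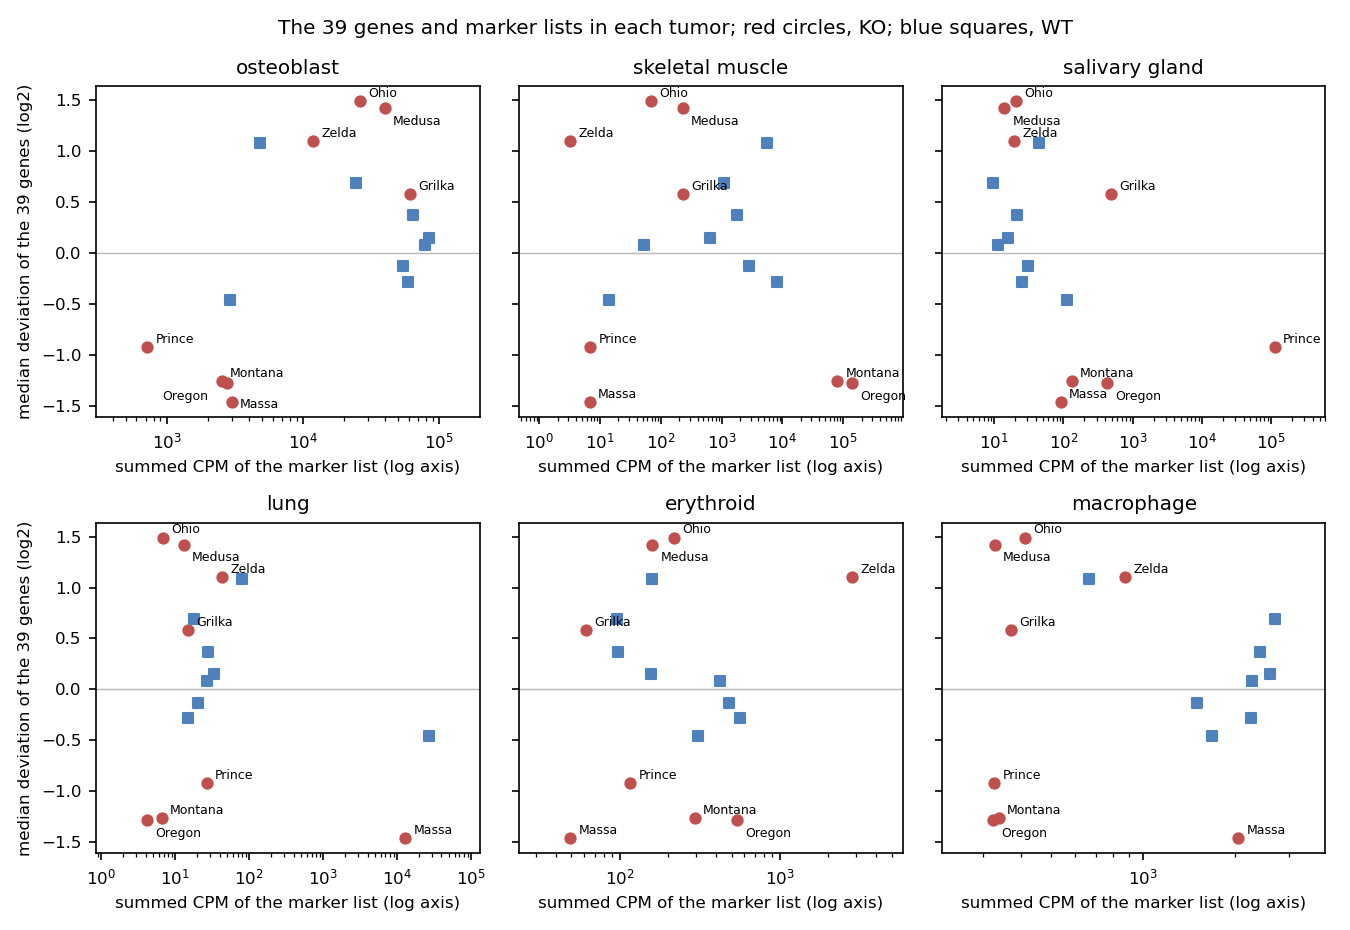
Median deviation of the 39 genes in each tumor (y axis, log2) against the summed CPM of 6 marker lists (x axes, log scale); red circles are KO and blue squares WT. The 4 KO tumors below 0 lie at the left of the osteoblast panel, at or below 3011 CPM, and one or other of them stands far right in the muscle, salivary gland or lung panel.

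Between KO and WT, none of the 39 genes passed the threshold in edgeR's two-sided quasi-likelihood test with Benjamini-Hochberg adjustment over all genes tested (0 of 39 at an adjusted p under 0.05, where 4.01% of all genes tested passed). At an unadjusted p under 0.05 there were also 0 of 39, where 23.0% of all genes passed. DESeq2 called 0 of 39 (12.5% of all genes it tested). The p-values of these fits treat the 8 WT tumors as independent although they came from 4 mice. In the fits that allow for the mouse hardly any gene was called, 0.110% of all genes in limma-voom with a random effect for the mouse and 0.0625% with counts summed per mouse, so the 0 of 39 found in each says little about these genes. The fitted log2 fold change, KO minus WT, was above 0 for 30 genes and below 0 for 9, with a median of 0.27 against 0.10 for all genes tested. The direction depended on the scale. On the difference of mean log2 CPM, which weighs the low tumors as much as the high ones, 11 genes were above 0 and 28 below, with a median of −0.35 against −0.20 for all genes tested. These means hold a floor, since the 10 genes at 0 counts in Massa entered at −2.56, which the prior count sets. *Cdc6*, *Prim1*, *Tk1* and *Chaf1b*, whose mean differences are given later, are among those genes. On the difference of median log2 CPM, 15 genes were above 0 and 24 below, with a median of −0.10 against −0.13 for all genes tested. With library totals in place of TMM scaling, 19 fitted values were above 0 and 20 below, with a median of −0.03 against −0.33 for all genes.

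**Figure D3:**
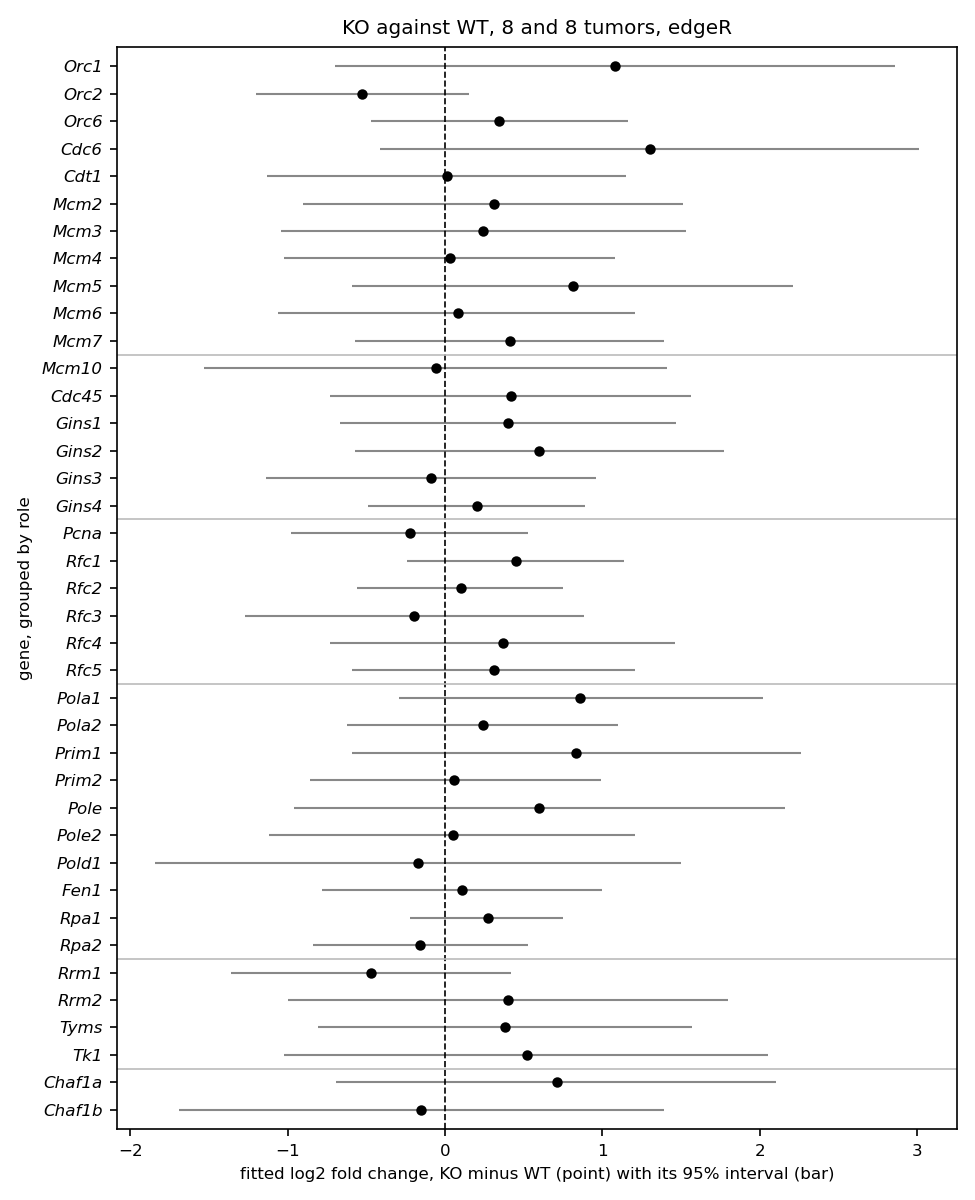
Fitted log2 fold change, KO minus WT (x axis, points), with its 95% interval (bars) for the 39 genes (y axis, by role), n = 8 and 8 tumors. All 39 intervals include 0, and 30 points lie right of it.

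In origin licensing the fitted median was 0.31, with 10 of 11 genes above 0 and 0 past the threshold. *Orc2*, a core subunit of the origin recognition complex, ranged from 8.92 (Massa) to 47.9 CPM (Zelda) in KO with a median of 17.9, and from 20.7 (N25 lung) to 42.3 CPM (N215 R hind limb) in WT with a median of 31.4. The groups overlapped, 5 KO tumors lay below the lowest WT tumor and 1 above the highest. Its fitted log2 fold change was −0.53 (SE 0.32, edgeR adjusted p = 0.340), and the mean log2 CPM differed by −0.72 (two-sided exact permutation test over all splits of 16 tumors into 8 and 8, unadjusted p = 0.0451, n = 8 and 8). This was 1 of 12 such tests, and none of the other 11 had a p under 0.05. The test treats tumors of 1 mouse as independent. With counts summed per mouse, added after the data were seen, the mean log2 CPM of *Orc2* differed by −0.63 (exact permutation p = 0.216, n = 8 and 4 mice).

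*Cdc6*, which loads the helicase, was listed at 0 in Massa and reached 29.9 CPM in Zelda (KO median 2.65). It ran from 0.550 (N43 spine) to 14.2 CPM (N215 R hind limb) in WT with a median of 2.07. Medusa at 14.8, Ohio at 14.5 and Zelda lay above the WT range and 4 KO tumors inside it. Its fitted log2 fold change was 1.30 (SE 0.81, edgeR adjusted p = 0.352), while the mean log2 CPM differed by 0.25 (exact permutation p = 0.818).

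For the rest of the group, the fitted log2 fold changes were 1.08 for *Orc1*, 0.34 for *Orc6*, 0.01 for *Cdt1*, 0.31 for *Mcm2*, 0.24 for *Mcm3*, 0.03 for *Mcm4*, 0.81 for *Mcm5*, 0.08 for *Mcm6* and 0.41 for *Mcm7*. The 6 helicase subunits differed in level. Per kilobase of exon, the WT median was 11.2 CPM for *Mcm4*, 9.56 for *Mcm6*, 7.29 for *Mcm3*, 6.22 for *Mcm7*, 4.16 for *Mcm2* and 2.71 for *Mcm5*. In KO, *Mcm5* was at 0 in Massa and reached 65.9 CPM in Ohio, while the WT tumors lay between 5.77 and 30.2 CPM. *Mcm6* lay between 5.48 (Prince) and 116 CPM (Ohio) in KO and between 34.4 and 113 CPM in WT.

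In helicase activation the fitted median was 0.30, with 4 of 6 genes above 0 and 0 past the threshold. *Gins2*, a subunit of the 4-protein GINS complex, ranged from 0.255 (Montana) to 17.5 CPM (Grilka) in KO with a median of 4.604, and from 1.74 (N25 lung) to 5.10 CPM (N215 R hind limb) in WT with a median of 4.55. The WT tumors were close together and KO spread to both sides of them. The fitted log2 fold change was 0.60 (SE 0.56, edgeR adjusted p = 0.555), and the mean log2 CPM differed by 0.03 (exact permutation p = 0.966).

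*Gins1*, of the same complex, ranged from 1.27 (Montana) to 10.3 CPM (Medusa) in KO with a median of 2.46 and from 2.001 to 8.05 CPM in WT with a median of 2.93. The fit gave a log2 fold change of 0.40 (SE 0.51, edgeR adjusted p = 0.681), and the mean log2 CPM differed by 0.02 (exact permutation p = 0.974). The fitted values of the others were −0.06 for *Mcm10*, 0.42 for *Cdc45*, −0.09 for *Gins3* and 0.20 for *Gins4*. *Gins4* did not follow the rest of the complex, an observation made after its values were seen. It was at 22.3 CPM in Massa, from 10 counts, and at 17.6 CPM in Montana, where the WT tumors lay between 7.42 and 26.8 CPM, and no KO tumor lay outside the WT range.

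In the clamp and clamp loader group the fitted median was 0.20, with 4 of 6 genes above 0 and 0 past the threshold. *Rfc1*, the large subunit of the clamp loader, ranged from 24.5 (Massa) to 181 CPM (Medusa) in KO with a median of 79.4, and from 44.4 (N43 spine) to 82.9 CPM (N42 L limb) in WT with a median of 64.9. Medusa, Grilka, Ohio and Zelda lay above the WT range, and only Massa lay below it. The fitted log2 fold change was 0.45 (SE 0.33, edgeR adjusted p = 0.437), and the mean log2 CPM differed by 0.24 (exact permutation p = 0.509).

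*Rfc5*, a small subunit of the loader, ranged from 3.92 (Oregon) to 32.2 CPM (Grilka) in KO with a median of 13.5 and from 8.13 (N25 lung) to 18.9 CPM in WT with a median of 13.5. For it the fit gave 0.31 on the log2 scale (SE 0.43, edgeR adjusted p = 0.708), while the mean log2 CPM differed by −0.07 (exact permutation p = 0.876). The fitted values were −0.22 for *Pcna*, 0.10 for *Rfc2*, −0.20 for *Rfc3* and 0.37 for *Rfc4*. *Pcna* was the most abundant of the 39 per kilobase of exon in WT, with a median of 18.2 CPM, and ranged from 11.99 (Montana) to 74.3 CPM (Zelda) in KO and from 25.1 to 63.0 CPM in WT. Annotated processed pseudogenes resemble *Pcna* and *Tyms*, and reads shared with them could have been assigned to either.

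Among the polymerases, primase and fork factors the fitted median was 0.17, with 8 of 10 genes above 0 and 0 past the threshold. *Pola1*, the catalytic subunit of polymerase alpha, ranged from 8.30 (Prince) to 128 CPM (Medusa) in KO with a median of 26.7, and from 17.5 (N43 pelvis) to 59.5 CPM (N215 R hind limb) in WT with a median of 22.3. Medusa, Ohio at 101 and Zelda at 92.9 CPM lay above the WT range, and Oregon, Massa, Montana and Prince below it. The fitted log2 fold change was 0.86 (SE 0.55, edgeR adjusted p = 0.359), and the mean log2 CPM differed by 0.21 (exact permutation p = 0.734).

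*Prim1*, the catalytic subunit of primase, was listed at 0 in Massa and reached 58.7 CPM in Medusa (KO median 6.52), and ran from 6.04 (N43 spine) to 22.8 CPM (N215 R hind limb) in WT with a median of 10.1. In the fit its log2 fold change was 0.83 (SE 0.68, edgeR adjusted p = 0.489), while the mean log2 CPM differed by −0.65 (exact permutation p = 0.572). The fitted values were 0.24 for *Pola2*, 0.06 for *Prim2*, 0.60 for *Pole*, 0.05 for *Pole2*, −0.17 for *Pold1*, 0.11 for *Fen1*, 0.27 for *Rpa1* and −0.16 for *Rpa2*. *Pole*, the catalytic subunit of polymerase epsilon, ran from 0 in Massa to 145 CPM in Medusa. *Rpa1*, which coats single-stranded DNA and also acts in repair, stayed between 26.9 (Grilka) and 90.8 CPM (Montana) in KO and between 40.4 and 71.6 CPM in WT, and Massa at 71.4, Montana and Oregon at 69.1 CPM were among its higher KO values. *Pole*, *Pold1* and *Rpa1* are described beyond the fold change because their values stood apart once seen.

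In nucleotide synthesis the fitted median was 0.39, with 3 of 4 genes above 0 and 0 past the threshold. *Rrm1*, the large subunit of ribonucleotide reductase, ranged from 20.8 (Prince) to 171 CPM (Zelda) in KO with a median of 38.4, and from 45.6 (N25 lung) to 137 CPM (N42 L limb) in WT with a median of 92.7. Massa, Montana, Prince and Oregon lay below the WT range, Zelda above it, and Grilka at 45.65 CPM beside its lowest value of 45.63. The fitted log2 fold change was −0.47 (SE 0.42, edgeR adjusted p = 0.542), and the mean log2 CPM differed by −0.83 (exact permutation p = 0.0877).

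*Tk1*, the cytosolic thymidine kinase, was listed at 0 in Massa and reached 24.3 CPM in Zelda (KO median 8.72), and ran from 1.59 (N43 spine) to 18.9 CPM (N215 R hind limb) in WT with a median of 6.36. Its fitted log2 fold change was 0.52 (SE 0.73, edgeR adjusted p = 0.719), while the mean log2 CPM differed by −0.76 (exact permutation p = 0.482). The fitted values were 0.40 for *Rrm2*, the small reductase subunit, and 0.38 for *Tyms*, thymidylate synthase. *Rrm2* ran from 1.96 (Oregon) to 83.2 CPM (Zelda) in KO and from 7.78 to 35.8 CPM in WT.

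In chromatin assembly *Chaf1a* ranged from 3.06 (Montana) to 134 CPM (Grilka) in KO with a median of 31.2, and from 9.88 (N25 lung) to 77.7 CPM (N215 R hind limb) in WT with a median of 27.4. Grilka, Medusa and Ohio lay above the WT range and Montana, Prince and Oregon below it. The fitted log2 fold change was 0.71 (SE 0.66, edgeR adjusted p = 0.561), while the mean log2 CPM differed by −0.14 (exact permutation p = 0.866). *Chaf1b* was listed at 0 in Massa and reached 41.6 CPM in Grilka (KO median 7.46), and ran from 3.87 (N25 lung) to 23.6 CPM (N42 R femur) in WT with a median of 17.4. Its fitted log2 fold change was −0.15 (SE 0.73, edgeR adjusted p = 0.930), and the mean log2 CPM differed by −1.71 (exact permutation p = 0.145).

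**Figure D4:**
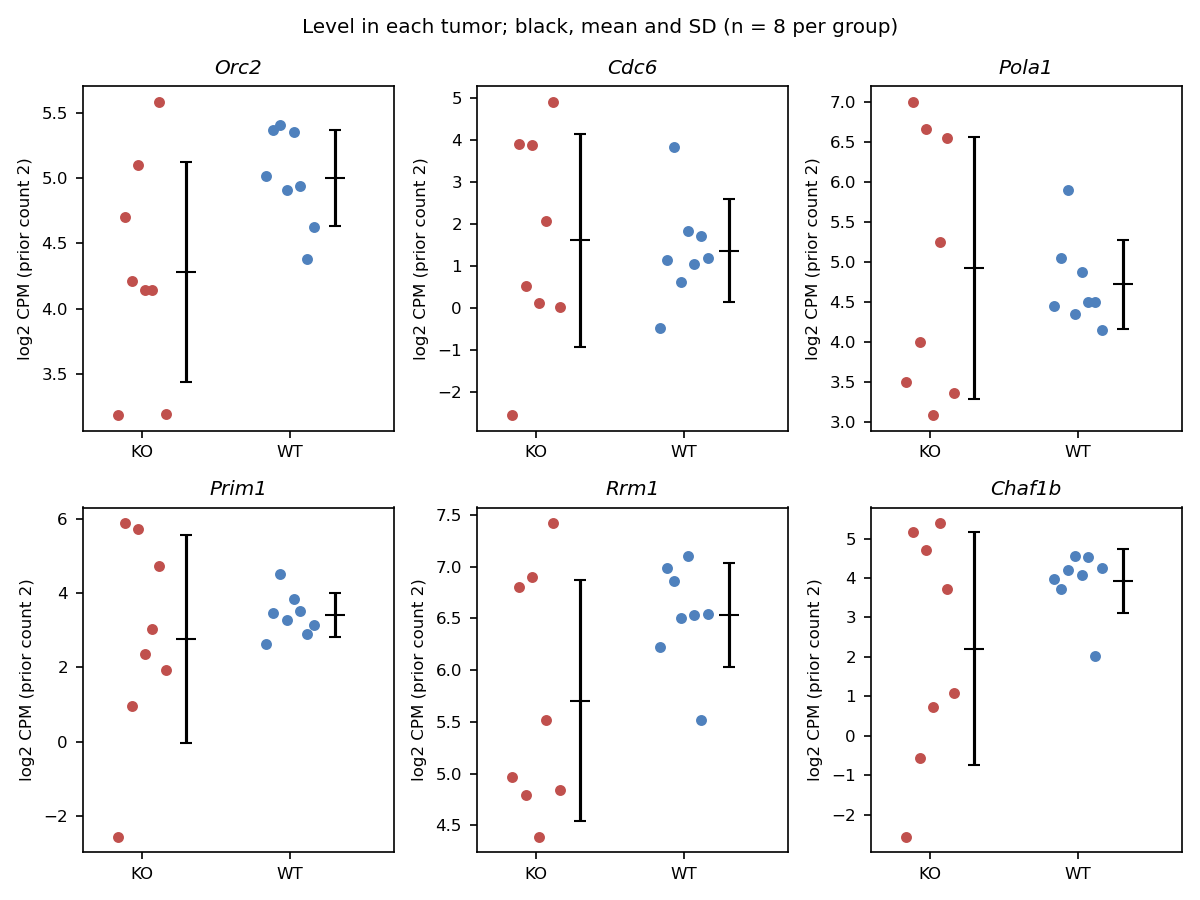
Log2 CPM (y axes, prior count 2) of 6 of the genes described in full, one point per tumor, KO in red and WT in blue; the black mark and bar give the mean and SD (n = 8 per group). For *Pola1*, 4 KO points lie below the WT points, 3 above them and 1, Grilka, among them; a point near −2.6 is Massa at 0 counts.

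The spread between tumors was wider in KO than in WT for 37 of the 39 genes, and for 90.4% of all genes tested. The exceptions were *Gins4*, with an SD of log2 CPM of 0.55 in KO and 0.66 in WT, and *Pold1*, with 1.60 in both. The median SD over the 39 genes was 1.56 in KO and 0.63 in WT, and over all genes tested it was 1.11 and 0.51. A KO SD above 1 was found in 32 of the 39 genes (82.1%) and in 55.8% of all genes. Without Massa and Grilka, the shallowest libraries, the median SD of the 39 genes was 1.50 in KO, while that of all genes tested was 0.87. With counts summed per mouse it was 1.59 in 8 KO mice and 0.75 in 4 WT mice for the 39 genes, and 1.16 and 0.56 for all genes. The widest KO spreads were those of *Pole* (3.35), *Chaf1b* (2.95), *Mcm5* (2.86) and *Prim1* (2.80), each of which was at 0 counts in Massa. This order changed without the shallowest libraries. Without Massa and Grilka the SD was 2.46 for *Pole*, 2.36 for *Chaf1b*, 2.11 for *Prim1* and less for *Mcm5*, and the widest were those of *Mcm10* (2.95) and *Orc1* (2.70). These 2 also held counts near 0. *Mcm10* was at 0 counts in Montana, and *Orc1* was at 1 count in Montana, 2 in Oregon and 4 in Prince. With all 8 KO tumors the narrowest were those of *Gins4*, *Rpa1* (0.58) and *Rpa2* (0.72). No test of the difference in spread was made.

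The count of genes past the threshold changed when tumors with markers of another tissue were left out. Without the 5 tumors in which the muscle, lung or salivary gland list summed to over 10000 CPM (Massa, Montana, Prince, Oregon and N25 lung, a limit chosen after the data were seen), 4 KO and 7 WT tumors remained. Then 5 of the 39 genes were past the threshold in edgeR, all higher in KO, where 3.70% of all genes were called higher. They were *Pola1* (log2 fold change 1.65, SE 0.37), *Prim1* (1.65, SE 0.45), *Mcm5* (1.62, SE 0.41), *Pole* (1.38, SE 0.34) and *Rfc1* (0.95, SE 0.25). The fitted value was above 0 for 38 of the 39 genes, with a median of 0.84 against −0.00 for all genes tested. The 4 KO tumors left out are those with the lowest values of the 39 genes, so the limit on other tissue and the level of these genes cannot be told apart here. A further fit left out the 6 KO tumors in which genes of another tissue were raised in earlier results of these data, and so kept Medusa and Ohio as the only KO tumors. These have the highest median level of the 39 genes among the 16 tumors, so its calls describe 2 tumors that stand high and are no test of KO against WT. In it 6 genes were past the threshold (2.96% of all genes were called higher). They were the same 5 and *Tyms* (1.46, SE 0.35), and the median was 1.08 against −0.16 for all genes.

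Among the WT tumors the labels give a site. The 3 tumors of the trunk (N43 spine, N43 pelvis and N42 R pelvis) were compared with the 4 of the limbs, shoulder included, and the lung tumor was left out. No gene of the 39 passed the threshold (edgeR, 0 of 39 against 0% of 17131 genes tested), and 0 had an unadjusted p under 0.05 (3.74% of all genes). DESeq2 gave a p-value for 38 of the 39 and called 0 of them (0.166% of all genes). At an unadjusted p under 0.05 it had 3 of the 38, and 1131 of 23890 genes in all. With hardly any gene called in either tool, the counts of 0 say little about these genes. All 39 fitted log2 fold changes, trunk minus limb, were below 0, with a median of −0.50 against −0.01 for all genes tested, where 8691 of 17131 were below 0. The shift was not particular to the 39. All 12 proliferation markers (median −0.92), 39 of 44 other replication factors (−0.45) and 31 of 37 other nucleotide synthesis enzymes (−0.23) were below 0. Among the 39, the smallest p-values belonged to *Pole* (−0.69, SE 0.30), *Rfc1* (−0.50, SE 0.22) and *Mcm2* (−1.20, SE 0.55), each with an edgeR adjusted p of 0.974. With the mouse as a covariate the values lay on both sides, with 19 genes above 0 and 20 below and a median of −0.02. Only N42 had tumors of both classes. That fit therefore sets its R pelvis tumor against its R femur, L limb and L shoulder tumors and says nothing on other mice. Without N215 R hind limb the median was −0.35.

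Mice N42 and N43 each had tumors of several sites, and N42 had both classes. N215 R hind limb was the highest of the 8 WT tumors for 29 of the 39 genes, and N25 lung the lowest for 21 and N43 spine for 11. Within N42, the L limb tumor was the highest of 4 for 29 genes, and the R femur tumor, also of a limb, was the lowest for 20 and the L shoulder tumor for 15. Within N43, the spine tumor was the higher one for 21 genes and the pelvis tumor for 18. *Mcm2* was at 114 CPM in N215 R hind limb, at 28.1, 29.7, 33.9 and 47.3 CPM in the N42 tumors of L shoulder, R femur, R pelvis and L limb, and at 15.7 and 20.5 CPM in the N43 tumors of spine and pelvis. *Pole* was at 61.8 CPM in N215 R hind limb, at between 31.4 and 47.8 CPM in the N42 tumors and at 21.7 and 24.7 CPM in those of N43. *Rfc1* lay between 63.3 and 82.9 CPM in the N42 tumors, at 78.3 CPM in N215 R hind limb, and at 44.4 and 48.0 CPM in N43.

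**Figure D5:**
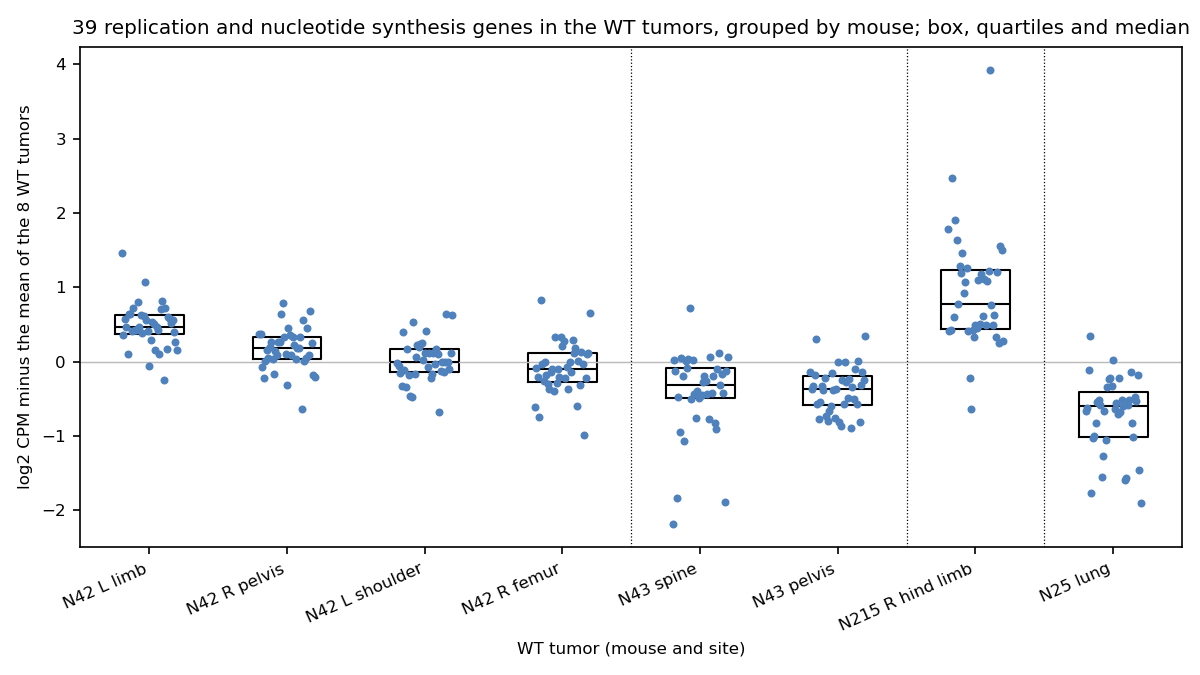
Log2 CPM of the 39 genes in each WT tumor, as the difference from the mean of the 8 WT tumors (y axis); points are genes, boxes give quartiles and median, and dotted lines separate the mice. N215 R hind limb sits highest and N25 lung lowest, and the single point near 4 in N215 R hind limb is *Pold1*.

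Other genes of the same pathways were read from the same test. Of 44 other replication factors, 0 passed the threshold in edgeR (4.01% of all genes did), 1 had an unadjusted p under 0.05 (23.0% of all genes), and 35 had a fitted log2 fold change above 0 (median 0.29). Of all genes tested, 8611 of 15413 were above 0 (median 0.10). The direction depended on the scaling. With RLE and with upper-quartile scaling 37 of the 44 were above 0. With library totals 19 were (median −0.03, and −0.33 for all genes). The smallest p-values were those of *Rnaseh2a* (0.91, SE 0.26, edgeR adjusted p = 0.0531), the catalytic subunit of RNase H2, *Clspn* (1.53, SE 0.73, edgeR adjusted p = 0.221), the checkpoint adaptor claspin, and *Dna2* (1.01, SE 0.52, edgeR adjusted p = 0.250), a helicase and nuclease of Okazaki fragments. *Rnaseh2a* lay between 8.45 and 19.6 CPM in KO (median 12.9) and between 4.65 and 8.97 CPM in WT (median 7.25), with a narrow overlap of the groups, and DESeq2 called it.

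Of 37 other enzymes of nucleotide synthesis, 0 passed the threshold in edgeR, 6 had an unadjusted p under 0.05 against the same 4.01% and 23.0% of all genes, and 26 were above 0 (median 0.17). RLE and upper-quartile scaling also gave 26 above 0, while library totals gave 14 (median −0.16, and −0.33 for all genes). *Dhodh*, the mitochondrial enzyme of pyrimidine synthesis, lay between 4.46 and 19.7 CPM in KO (median 9.82) and between 4.31 and 7.23 CPM in WT (median 4.89), with a log2 fold change of 1.01 (SE 0.30, edgeR adjusted p = 0.0613). *Pfas*, of purine synthesis, had a log2 fold change of 1.20 (SE 0.39, edgeR adjusted p = 0.0809), and *Gart*, of the same pathway, 0.54 (SE 0.22, edgeR adjusted p = 0.148). DESeq2 called these 3 as well, so that 4 of the 81 genes passed its threshold, all higher in KO, where DESeq2 called 7.76% of all genes higher.

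Of 12 proliferation markers 0 passed the threshold in edgeR, in DESeq2 or at an unadjusted p under 0.05 (4.01%, 12.5% and 23.0% of all genes), with 7 fitted values above 0 and 5 below (median 0.08). The direction depended on the fit. RLE and upper-quartile scaling also gave 7 above 0. Library totals gave 2 above 0 (median −0.22, and −0.33 for all genes). Limma-voom with a random effect for the mouse gave 0 above 0 and 12 below (median −0.65, and −0.06 for all genes). *Mki67*, which encodes the Ki-67 antigen of cycling cells, lay between 4.34 and 1460 CPM in KO (median 251) and between 61.7 and 298 CPM in WT (median 130), with a log2 fold change of 1.50 (SE 0.91, edgeR adjusted p = 0.335). Without the tumors over the tissue limit *Mki67* was past the threshold at 2.39 (SE 0.45). It was the only 1 of the 12 markers called in that fit, where 3.70% of all genes were called higher. The limit was chosen after the data were seen, and the KO tumors it leaves out have the lowest levels of the replication genes. This call is therefore no test of KO against WT.

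Of the 39 genes, 15 have an exon that overlaps another gene, such as *Mcm7* with *Cops6*, *Rfc4* with *Eif4a2* and *Orc2* with *Nif3l1*, all on opposite strands. Whether the libraries keep strand is not given in the sources used here, so reads from both genes of such a pair could not be told apart.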

How the data were processed

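Ribosomal RNA was removed from total RNA of 16 tumors, and libraries were read once over 50 cycles. Per the paper's methods and the submitters' processing notes, the authors aligned reads with Novoalign 2.08.01 to mm10 and Ensembl junctions, allowed up to 50 alignments and kept the best, counted reads per gene with USeq, and ran DESeq2 1.26.0. The deposited values are raw counts per gene, without normalization. A shared pseudogene or an overlapping gene can therefore take reads of a gene.

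The counts were fitted in edgeR 4.0.16 (R 4.3.3) with TMM scaling, filterByExpr (minimum count 10, minimum total 15), glmQLFit and glmQLFTest, two-sided, with Benjamini-Hochberg adjustment over all genes tested and a threshold of 0.05. The biological coefficient of variation was 70.4%. TMM factors ran from 0.409 (Massa) to 1.504 (Zelda). CPM were counts scaled to a TMM-normalized library size of 1e+06, and log2 CPM had a prior count of 2. DESeq2 1.42.0 and limma 3.58.1 (statmod 1.5.0) were alternatives. Further alternatives changed the scaling, the filter, the covariates or the tumors in the fit. The fits were tested on simulated data. Exact permutation tests used all splits into 8 and 8 tumors, with 0.000155 as the smallest p they can give. Python 3.11.15, numpy 2.4.6, pandas 2.3.3 and matplotlib 3.10.9 served for summaries and figures. Gene positions came from GENCODE vM21 (GRCm38).

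The 39 genes, their roles, the other pathway lists and the marker lists were chosen with earlier results of these data known. Every one of the 39 is named with its log2 fold change. Full values are given for genes past the threshold and, in each of 6 roles, for the 2 with the smallest p. The 3 genes with the smallest p are named for the site comparison and for each other pathway list, and *Mki67* always. Genes described further were chosen after their values were seen. The 3 trunk and 4 limb classes were set from the site labels. Depth limits the KO group most, since 3 counts stand for 6.69 CPM in the shallowest library.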

Additional observations from a re-analysis of the deposited data

Results flagged for a closer look

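For each of the 39 genes, the highest and lowest tumor of each group of 8 was set against the others by Dixon's ratio, the gap to the nearest tumor over the range of log2 CPM (78 groups). In 3 of these groups the ratio was above its 95% critical value, and chance flags about 1 group in 20.

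*Pold1*, the catalytic subunit of polymerase delta, stood apart in the WT tumor N215 R hind limb (ratio 0.878). It was at 208 CPM there, from 1832 counts, and between 7.58 and 11.4 CPM in the other 7 WT tumors, and between 2.23 and 62.5 CPM in KO. Without this tumor *Pold1* was past the threshold in edgeR, higher in KO (log2 fold change 1.76, standard error 0.49), where it was −0.17 with all 16. In that fit 488 of 15829 genes were called higher. The tumor is singled out here by its *Pold1* value, so the call shows its weight in the fit and is no test of KO against WT. The fit also treats tumors of 1 mouse as independent. Some neighbors of *Pold1* on chromosome 7 (from 44532746 to 44548849, GRCm38) were also high in this tumor, an observation made after the values were seen. *Spib*, which lies from 44525993 to 44532071 on the minus strand, as *Pold1* does, was at 34.4 CPM. In the other WT tumors it was between 0 and 7.75 CPM. *Gm44832* was at 7.60 CPM against 0. *Nr1h2*, next to *Pold1*, was at 51.2 CPM against between 38.6 and 51.7, and *Napsa* at 70.1 CPM against between 2.73 and 85.0. The cause was not tested.

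*Rfc4* stood apart in the KO tumor Massa (ratio 0.580), where it was at 0 counts, which allows up to 6.69 CPM at 3 counts. The other 7 KO tumors lay between 2.81 and 23.4 CPM. *Chaf1b* stood apart in the WT tumor N25 lung (ratio 0.664), at 3.87 CPM against between 12.9 and 23.6 CPM in the other 7.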

How the results depend on the processing

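No paired analysis was possible because no mouse gave tumors to both groups. Over 29 alternatives of KO against WT, the count of the 39 genes past the threshold stayed at 0 in 26. It was 6 with Medusa and Ohio, which stand highest in these genes, as the only KO tumors, 5 without the tumors over the tissue limit, which was added after seeing the data, and from 0 to 1 without each tumor in turn (1, *Pold1*, without N215 R hind limb). In some of the 26 hardly any gene was called. Of 16050 genes without N42, 5 were called higher and 3 lower. With depth as a covariate, 49 of 15413 were called higher and 35 lower. Counts summed per mouse gave 0.0625% and limma-voom with a random effect for the mouse 0.110%. In these fits the 0 of 39 says little about these genes. The fit without N25 lung is counted both on its own and among those without each tumor. For the 81 other pathway genes all calls were higher in KO. The count was 4 in DESeq2 (7.76% of all genes called higher) and 1 with RLE scaling (335 of 15413 genes called higher). It was 1 with upper-quartile scaling (317 of 15413), 1 without N25 lung (450 of 15457) and 2 without Massa and Grilka (491 of 16610). It was 8 with Medusa and Ohio alone (2.96%) and 8 without the tumors over the tissue limit (3.70%). Without each tumor in turn it ran from 0 to 2, where between 102 of 15535 and 650 of 15829 genes were called higher. The median log2 fold change of the 39 genes, 0.27, ran from 0.02 to 0.47 without each tumor and from −0.03 (library totals) to 1.08 (Medusa and Ohio alone) otherwise. The trunk against limb count was also 0 in 11 alternatives, but edgeR called 0 of all 17131 genes there, so a count of 0 was nearly given by the comparison itself.

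Of 348 values of the 12 genes given in full, 328 kept their direction and side of the threshold, 6 passed it, and 14 changed sign, none of those past the threshold. Leaving out 1 tumor moved 34 of 192 values by over 1.5 times, in each of the 12 genes, and 1 of them by more than its SE, *Cdc6* from 1.30 to 2.14 without N215 R hind limb. *Cdc6* was 0.64 without Zelda, *Prim1* went from 0.83 to 0.36 and *Gins1* from 0.40 to 0.12 without Medusa, and *Gins2* from 0.60 to 0.24 and *Chaf1a* from 0.71 to 0.34 without Grilka. *Chaf1b* was 0.10 with counts summed per mouse, 0.13 without N42, 0.85 with Medusa and Ohio alone, 0.62 without the tumors over the tissue limit, and from −0.52 to 0.04 without each tumor. *Rrm1* was 0.10 with depth as a covariate, 0.21 with Medusa and Ohio alone and 0.11 without the tumors over the tissue limit. *Rfc5* was −0.04 with library totals. With limma-voom *Tk1* was −0.32 and *Chaf1a* −0.22. The mean log2 CPM difference of *Gins2* was −0.02 with a prior count of 0.5, and with counts summed per mouse, added after seeing the data, the differences of *Cdc6*, *Gins1* and *Rfc5* were −0.25, −0.00 and 0.03. The causes were not tested. Depth limits Massa, where 23 of the 39 genes had 3 counts or fewer.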
